A study of Mus musculus with 24 samples.

Results

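The pair of single-drug groups compared here were docetaxel and ORIN1001, set against each other in total tumour RNA. They were chosen by their labels alone, as the 3 docetaxel and 3 ORIN1001 input libraries, 6 of the 24 libraries in the series. Each library came from a 2153L tumour, a p53-knockout, triple-negative mammary cancer of the mouse that was grown from transplanted fragments in cleared mammary fat pads of female BALB/c hosts aged 6 to 8 weeks. Dosing began once a tumour measured about 100 mm3. ORIN1001 was given at 150 mg/kg by daily oral gavage, docetaxel at 10 mg/kg by weekly intraperitoneal injection, and mice on 1 drug also received the vehicle of the other arm. All groups share the p53 knockout, the 1 tumour line and a host with its own stroma and immune cells, so a library holds RNA of tumour and host cells. The labels call the samples biological replicates. The 3 vehicle and 3 combination inputs entered the same model, and the other 12 libraries, made by pull-down with the J2 antibody to double-stranded RNA from the same tumours, serve as side values.

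Docetaxel is a taxane: it binds the beta subunit of tubulin within microtubules, stops them from shortening, and thereby arrests dividing cells at the spindle checkpoint. ORIN1001 inhibits the ribonuclease of IRE1α, a protein in the membrane of the endoplasmic reticulum that senses misfolded proteins, whose ribonuclease splices the Xbp1 mRNA into the template of an active transcription factor and also cleaves other transcripts in a process called regulated IRE1-dependent decay (RIDD). The drugs act on different machines, the mitotic spindle and the secretory pathway, and both reach the host cells of a tumour as well as its cancer cells. The comparison asks which transcripts differed between tumours under one drug and tumours under the other. It does not by itself say which drug moved a gene, so vehicle values are given where they help a reader place a level.

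Promoters of 2 gene groups that the drugs are known to touch are shown first, because the medians of these groups differ below, that of the spindle genes above 0 and that of the secretory genes near 0. Genes of mitosis often carry the cell cycle homology region, searched here as TTTGAA, near their start. It was found on either strand in 20 of 30 mitosis genes with a RefSeq promoter (66.7%), against 20.2% of 27025 genes. Genes of folding and secretion can carry the endoplasmic reticulum stress element, CCAAT followed 9 bases on by CCACG, a site of ATF6 that XBP1 can also use. That element was found in 9 of 38 such genes (23.7%), against 0.137% of all, and contains the shorter CCAAT box. A match is a description of the letters and not evidence of binding. The promoters below are RefSeq sequences of GRCm38.p6, 250 bases before to 50 after the start, written 5′ to 3′ on the gene's strand with the matched element in capitals. They are the 2 members of each group that hold the element and had the smallest p without Docetaxel 3.
Cenpf (chr1:189688037-189688336, minus strand): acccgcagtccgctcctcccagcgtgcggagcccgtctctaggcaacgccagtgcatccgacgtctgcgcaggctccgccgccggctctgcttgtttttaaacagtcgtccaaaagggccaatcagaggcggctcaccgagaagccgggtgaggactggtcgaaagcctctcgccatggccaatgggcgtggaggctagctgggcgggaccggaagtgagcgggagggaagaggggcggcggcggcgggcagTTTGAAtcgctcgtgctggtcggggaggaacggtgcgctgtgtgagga
Espl1 (chr15:102296043-102296342, plus strand): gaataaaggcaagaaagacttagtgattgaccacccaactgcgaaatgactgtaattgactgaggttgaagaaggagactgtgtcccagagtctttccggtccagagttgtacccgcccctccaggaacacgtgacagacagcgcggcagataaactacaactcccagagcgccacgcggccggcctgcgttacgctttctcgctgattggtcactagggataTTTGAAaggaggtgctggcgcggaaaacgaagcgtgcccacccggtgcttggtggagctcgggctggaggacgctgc
Derl3 (chr10:75893148-75893447, plus strand): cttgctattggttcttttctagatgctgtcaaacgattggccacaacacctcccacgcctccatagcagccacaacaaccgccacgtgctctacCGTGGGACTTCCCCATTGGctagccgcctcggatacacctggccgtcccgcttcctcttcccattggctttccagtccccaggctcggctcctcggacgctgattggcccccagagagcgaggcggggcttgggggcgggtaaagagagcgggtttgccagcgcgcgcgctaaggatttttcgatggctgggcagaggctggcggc
Syvn1 (chr19:6046326-6046625, plus strand): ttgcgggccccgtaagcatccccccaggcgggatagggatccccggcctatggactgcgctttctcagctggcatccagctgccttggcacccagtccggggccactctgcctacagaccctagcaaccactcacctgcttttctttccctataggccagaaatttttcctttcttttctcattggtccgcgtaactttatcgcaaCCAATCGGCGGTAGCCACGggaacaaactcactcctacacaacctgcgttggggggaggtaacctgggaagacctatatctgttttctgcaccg
Cenpf, a kinetochore protein, and Espl1, the separase that opens sister chromatids, carried TTTGAA in the printed orientation. In Derl3, a channel component of protein disposal from the endoplasmic reticulum, the element lay on the opposite strand, and in Syvn1, the ubiquitin ligase of that disposal, on the printed strand.

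Docetaxel 3 stood apart from the other 5 libraries before any comparison. It held 3273101 gene counts, against 45043045, 25400196 and 34362886 in ORIN1001 1 to 3 and 16249685 and 63267669 in docetaxel 1 and 2. Ribosomal RNA loci took 71.3% of its counts and at most 3.80% in any other input library. It detected 14156 genes, where the other inputs detected 21973 to 26129. CPM are counts scaled to a TMM-adjusted library of 1000000. The TMM factor was 0.244 for Docetaxel 3 and 1.09 to 1.21 for the other inputs, so CPM are not shares of a library's counts. In Docetaxel 3, 1 count equals 1.25 CPM, so that 3 counts, the floor used for a zero, equal 3.76 CPM. Mitochondrial genes took 7.63% of the counts of Docetaxel 3 and 0.652% to 1.22% in the other inputs. The 13 mitochondrial mRNAs summed to 278000 CPM in Docetaxel 3 and to between 2860 and 9130 CPM in the other inputs. The 11 adipocyte markers summed to 1010 CPM there, with 1 marker at 0, and to between 9.88 and 36.0 CPM in the other inputs. The J2 library of the same tumour held 14.8 CPM of them, above the 4.22 to 13.2 CPM of the other J2 libraries. The rank correlation of Docetaxel 3 with docetaxel 1 and 2 was 0.846 and 0.85. The part of RNA quality, depth or fat tissue in its values was not tested, and the fold changes and list medians below are given with and without it. Its J2 counterpart stood apart too, on 6686205 gene counts: ribosomal RNA loci made up 19% of it, where the remaining docetaxel and ORIN1001 pull-downs had 1.33% to 3.62%. Mitochondrial rRNA and tRNA genes summed to 16500 CPM in that J2 library and to 159 to 494 CPM in those pull-downs.

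**Figure D1:**
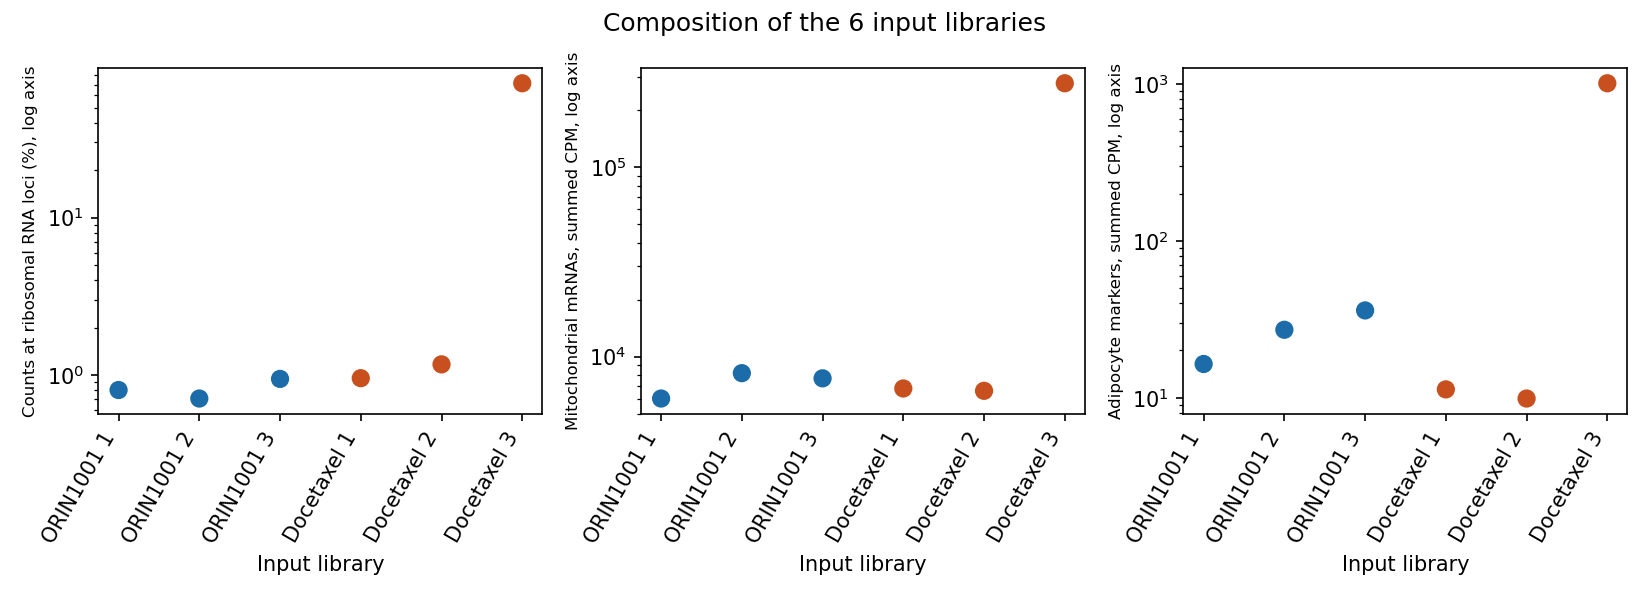
Share of counts at ribosomal RNA loci (percent), summed CPM of mitochondrial mRNAs and summed CPM of adipocyte markers (y axes, log scale) for the 6 input libraries (x axis), with ORIN1001 in blue and docetaxel in orange. Docetaxel 3 lies at 71.3%, 278000 CPM and 1010 CPM, above the other 5 libraries in each panel.

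With all 12 inputs, edgeR's quasi-likelihood test called 0 of 17768 genes (0%) between docetaxel and ORIN1001 at a Benjamini-Hochberg adjusted p of 0.05. The smallest adjusted p was 0.0929, and 2480 genes (14%) had an unadjusted p under 0.05, 7.04% of all on the higher and 6.92% on the lower side, while DESeq2 called 576 and limma voom with sample weights 1137. Without Docetaxel 3, 88 of 18475 genes were called (0.476%), 64 higher with docetaxel (0.346%) and 24 lower (0.13%). Their adjusted p ran from 0.0103 to just under 0.05, and 3443 genes (18.6%) had an unadjusted p under 0.05. Leaving out ORIN1001 2 as well ended all 88 calls, as did a replicate block, and 1 gene was called when the inputs of both drugs were fitted alone. The count was 5 without ORIN1001 3, 5 without docetaxel 1, 1 without docetaxel 2, 6 without combination 1 and 4 without combination 3, and it was 260 without ORIN1001 1, 138, 168 and 205 without vehicle 1, 2 and 3, and 182 without combination 2. Limma voom called all 88 and DESeq2 86 of them, among longer lists of 999 and 1254.

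**Figure D2:**
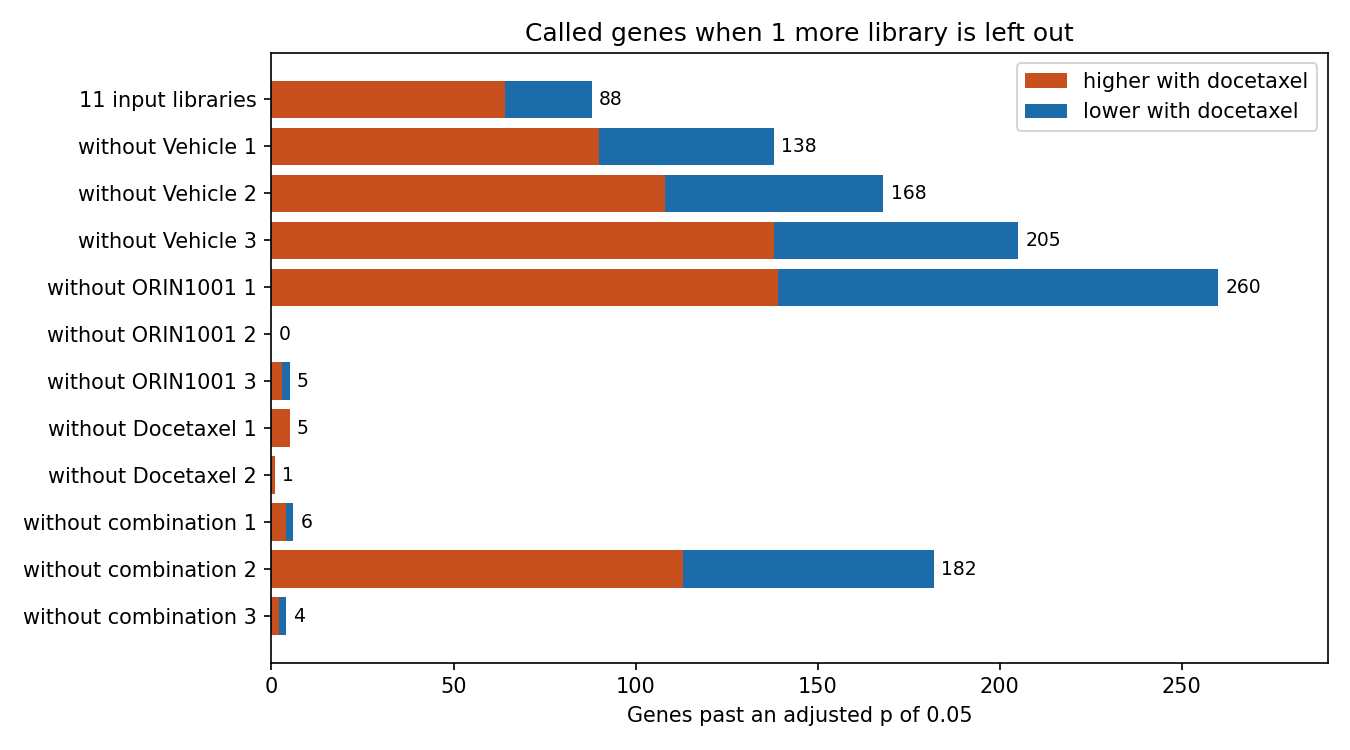
Number of genes past an adjusted p of 0.05 (x axis) in the fit of 11 input libraries and when 1 more library is left out (y axis), split into genes higher (orange) and lower (blue) with docetaxel. The bars run from 0 without ORIN1001 2 to 260 without ORIN1001 1, around 88 in the 11 libraries.

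Among the 64 genes called higher, the log2 fold change of docetaxel over ORIN1001 ran from 0.67 to 4.05 with a median of 1.82, and among the 24 called lower it ran from -6.42 to -0.52 with a median of -1.96. In the fit with Docetaxel 3 the sign was the same for 64 of 64 and 21 of 24. The exceptions included Dock6 and Fgfr1. Docetaxel 1 and 2 stood apart from all ORIN1001 inputs for all 88, which were called from these libraries. Docetaxel 3 lay above all ORIN1001 inputs for 28 of the 64, below all of them for 35 and within their range for 1. Of the 24 it lay below all ORIN1001 inputs for 18 and above all of them for 6. Over all genes tested the 3 docetaxel inputs did not overlap with ORIN1001 for 20.5%, a share that cannot be compared with genes chosen from these libraries. For genes this low, depth sets the position of Docetaxel 3. Its 1 count of Akap6 or of Edn1, both described below, equals 1.25 CPM and lies above every ORIN1001 value, where no count would have lain below. Docetaxel 3 had no count for 20 of the 64 and 6 of the 24. A zero there allows up to 3.76 CPM, which is below every ORIN1001 value of Serpina3g and Ampd3 and above every ORIN1001 value of Hopx, all described below. The J2 library of the third docetaxel tumour was not used for these calls. Across the J2 libraries, 37 of the 61 measured genes of the first set were above all ORIN1001 libraries in all 3 docetaxel tumours (9.19% of all genes), and 15 of 21 of the second were below (8.07%). Apart from the third docetaxel tumour, these J2 libraries come from the tumours whose inputs chose the genes. The shares over all genes are therefore not a fair baseline for them. The test of the J2 libraries themselves called 0 of 15869 genes, with 2017 at an unadjusted p under 0.05.

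**Figure D3:**
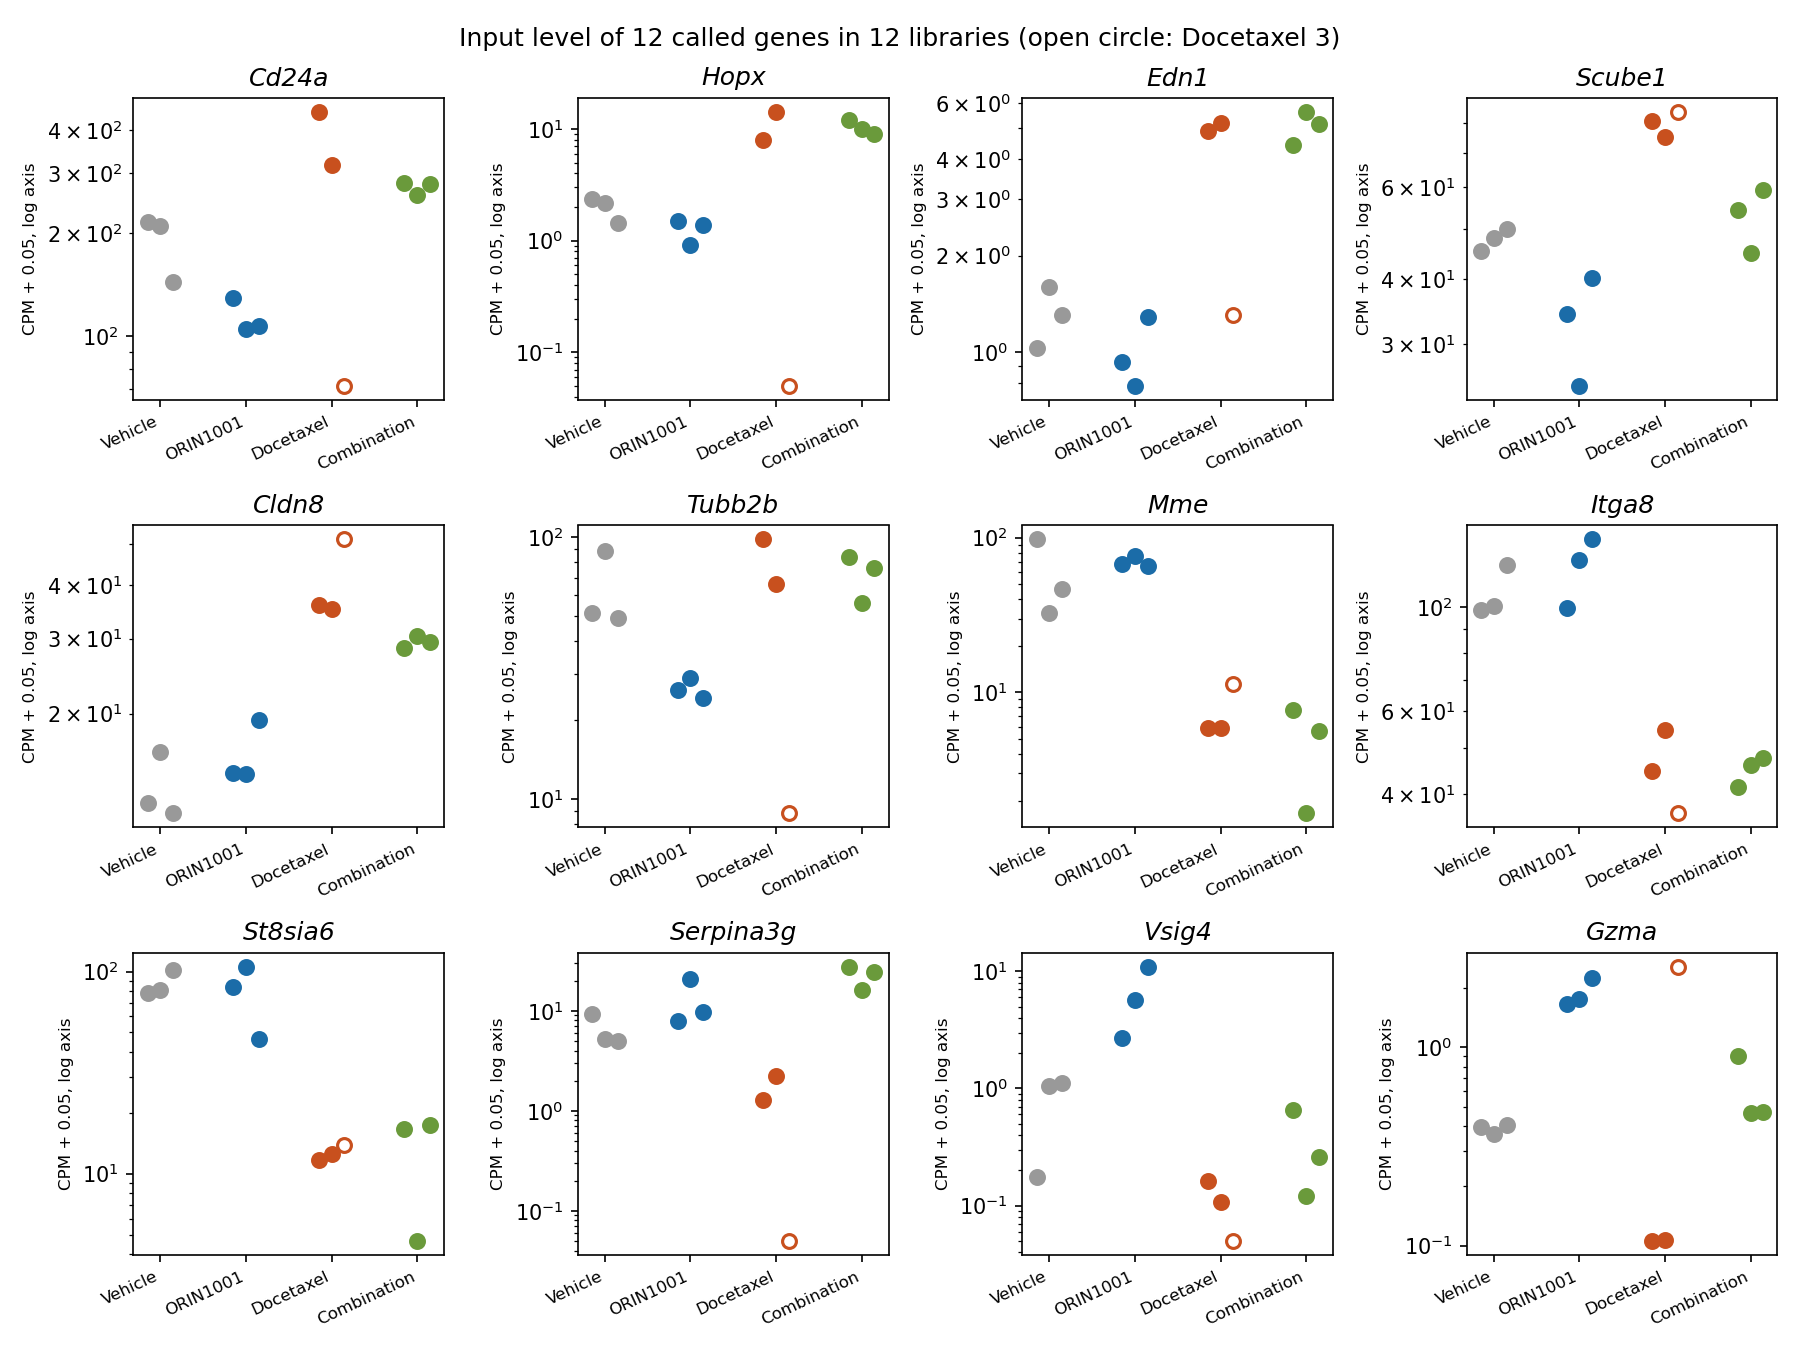
Level of 12 called genes (CPM + 0.05, log axis) in the 12 input libraries, grouped by treatment, with an open circle for Docetaxel 3. The filled docetaxel points lie apart from the ORIN1001 points in each panel, and the open circle joins them in some panels (Scube1, Cldn8, Mme, Itga8, St8sia6) and leaves them in others (Cd24a, Tubb2b, Gzma).

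Cd24a, Cldn8 and Nectin4, which encode surface and junction proteins of epithelium, were called higher with docetaxel than with ORIN1001. Cd24a, a surface glycoprotein of epithelial cells, measured 129, 105 and 107 CPM in ORIN1001 1 to 3 and 454, 317 and 71.4 CPM in docetaxel 1 to 3. Docetaxel 1 and 2 were above all ORIN1001 libraries and Docetaxel 3 below them, and the log2 fold change was 1.77 ± 0.20 (SE, adjusted p = 0.0103) without Docetaxel 3 and 1.33 ± 0.45 (SE, adjusted p = 0.233) with it. Log2 fold changes of docetaxel over ORIN1001 are given below with their standard error and edgeR's adjusted p, and parentheses give them first without Docetaxel 3 and then with it. In bulk tissue, fewer cells of a type and less RNA per cell cannot be told apart. In the J2 libraries, where 1 count of the third docetaxel tumour equals 0.13 CPM, Cd24a stood at 50.3, 38.9 and 48.1 CPM with ORIN1001 and 183, 174 and 91.9 CPM with docetaxel, without overlap. Vehicle inputs held 215, 210.2 and 144 CPM of it, between the ORIN1001 values and those of docetaxel 1 and 2.

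Cldn8, a tight junction claudin, was higher in all 3 docetaxel inputs, at 35.9, 35.1 and 51.3 CPM, than in the ORIN1001 inputs, at 14.5, 14.3 and 19.3 CPM. Its log2 fold change was 1.16 ± 0.18 (SE, adjusted p = 0.0461) without Docetaxel 3 and 1.31 ± 0.22 (SE, adjusted p = 0.0929) with it. The adhesion molecule Nectin4 likewise did not overlap, with 49.9, 39.2 and 39.5 CPM under ORIN1001 and 63.5, 74.4 and 78.9 CPM under docetaxel (0.70 ± 0.13, adjusted p = 0.0482, or 0.74 with Docetaxel 3). Of 31 tested claudin and junction genes, Cldn8 alone was called, 6 had an unadjusted p under 0.05 on the higher side and 0 on the lower side (9.39% and 9.25% of all genes), and the median was 0.16 (0.15 with Docetaxel 3) against -0.02 over all genes. Of 17 tested luminal markers 0 were called, 10 were above 0 and 7 below, and the median was 0.04 (-0.02 with Docetaxel 3). Esr1, a luminal marker on the lower side, measured 16.25, 17.76 and 14.85 CPM under ORIN1001 and 6.96, 7.22 and 36.3 CPM under docetaxel (-1.18 ± 0.38, adjusted p = 0.137, or -0.30 with Docetaxel 3). The luminal keratins Krt8 and Krt18 did not pass. Krt18 measured 353, 235 and 247 CPM under ORIN1001 and 501, 431 and 583 CPM under docetaxel, without overlap (0.76 ± 0.18, adjusted p = 0.075, or 0.86 with Docetaxel 3). Krt8 measured 699, 513 and 255 CPM under docetaxel, and Docetaxel 3 lay below the ORIN1001 values of 399.5, 305 and 288 CPM (0.89 ± 0.23, adjusted p = 0.0866, or 0.57 with Docetaxel 3).

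Irx4, Hopx, Tfcp2l1 and Scx, which encode transcriptional regulators, were called higher as well. Irx4, an Iroquois homeobox factor, was at 1.14, 0.872 and 0.179 CPM in ORIN1001 and at 7.47, 8.68 and 7.51 CPM in docetaxel. All 3 docetaxel libraries lay above all ORIN1001 libraries, with Docetaxel 3 resting on 6 counts. The difference was 3.47 ± 0.59 (SE, adjusted p = 0.0461) without Docetaxel 3 and 3.43 ± 0.60 (SE, adjusted p = 0.0929) with it. Hopx, a homeodomain protein that binds no DNA itself, measured 1.46, 0.872 and 1.33 CPM under ORIN1001 against 7.91, 14.2 and 0 CPM under docetaxel (3.19 ± 0.33, adjusted p = 0.0103, or 2.84 with Docetaxel 3). Docetaxel 3 had no Hopx count, which allows up to 3.76 CPM, whereas the J2 library of that tumour held 3.52 CPM against 1.27, 0.695 and 1.27 CPM in the ORIN1001 J2 libraries. Tfcp2l1, a grainyhead-related factor of ducts and stem cells, was at 40.6, 18.2 and 9.33 CPM with ORIN1001 and 143, 183 and 63.9 CPM with docetaxel, all docetaxel libraries above all ORIN1001 libraries (2.86 ± 0.53, adjusted p = 0.0489, or 2.55 with Docetaxel 3). The tendon factor Scx was low in both groups, at 0.1, 0.0349 and 0.308 CPM with ORIN1001 and 1, 2.66 and 0 CPM with docetaxel, and ORIN1001 2 held 1 count of it (3.62 ± 0.67, adjusted p = 0.049, or 3.44 with Docetaxel 3).

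Edn1, Scube1, Scube3 and Ntrk3, which encode secreted or surface proteins, were called higher with docetaxel. Edn1, which encodes the vasoconstrictor endothelin, measured 0.882, 0.733 and 1.23 CPM in ORIN1001, 4.85, 5.14 and 1.25 CPM in docetaxel and 0.976, 1.55 and 1.25 CPM in vehicle. Docetaxel 1 and 2 stood above every ORIN1001 and vehicle library, and Docetaxel 3, with 1 count, lay among the vehicle values (2.40 ± 0.29, adjusted p = 0.0158, or 2.20 with Docetaxel 3). The epidermal growth factor-like surface proteins Scube1 and Scube3 were both called. Scube1 did not overlap in any library, with 34.2, 24.8 and 40.2 CPM under ORIN1001 and 80.6, 75 and 83.9 CPM under docetaxel (1.24 ± 0.18, adjusted p = 0.0361, or 1.26 with Docetaxel 3). Scube3 measured 0.481, 0.454 and 0.564 CPM under ORIN1001 and 3.73, 6.07 and 0 CPM under docetaxel (3.31 ± 0.39, adjusted p = 0.0134, or 3.05 with Docetaxel 3). Ntrk3, the receptor of neurotrophin 3, had the largest rise by the naming rule: 0.421, 1.05 and 0.436 CPM with ORIN1001 against 12.3, 8.22 and 1.25 CPM with docetaxel, where Docetaxel 3 was also above all ORIN1001 libraries on 1 count (4.05 ± 0.67, adjusted p = 0.0461, or 3.74 with Docetaxel 3). Fst (follistatin, which binds activin), the WNT receptor Fzd1 and the Notch-modifying glycosyltransferase Lfng, named here after their values were seen, were also called. Their log2 fold changes were 1.53, 0.94 and 0.95 without Docetaxel 3 and 1.24, 0.70 and 0.83 with it. Of 15 tested Notch and WNT target genes none was called and 3 were higher at an unadjusted p under 0.05 (9.39% of all genes). Among the 3 was Axin2, a feedback gene of WNT signalling, at 2.95, 0.942 and 2.13 CPM with ORIN1001 against 7.13, 13.4 and 1.25 CPM with docetaxel (2.36 ± 0.49, adjusted p = 0.0543, or 2.07 with Docetaxel 3).

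Fut9, Srcin1, Trmt9b, Abca12, Atp10b and Akap6 were also called higher. Fut9, a fucosyltransferase that makes Lewis x sugars, measured 1.42, 2.41 and 1.41 CPM under ORIN1001 and 18.2, 28.9 and 2.5 CPM under docetaxel (3.79 ± 0.68, adjusted p = 0.0461, or 3.42 with Docetaxel 3), while 1 vehicle library reached 17.8 CPM. Srcin1, an inhibitory adaptor of Src kinase, was at 0.521, 0.209 and 0.359 CPM with ORIN1001 and 5.35, 3.56 and 8.76 CPM with docetaxel, with all docetaxel libraries above (3.57 ± 0.66, adjusted p = 0.049, or 3.80 with Docetaxel 3). Trmt9b, related to transfer RNA methyltransferases, was at 0.2, 0.279 and 0.0769 CPM with ORIN1001 and 1.28, 2.55 and 1.25 CPM with docetaxel (3.42 ± 0.55, adjusted p = 0.0461, or 3.33 with Docetaxel 3). The lipid transporter Abca12 was at 0.441, 0.174 and 0.41 CPM with ORIN1001 and 1.45, 3.6 and 0 CPM with docetaxel (2.88 ± 0.51, adjusted p = 0.0461, or 2.68 with Docetaxel 3), with no count in Docetaxel 3. Atp10b, a phospholipid flippase, measured 4.93, 3.87 and 1.79 CPM with ORIN1001 against 30.1, 17.7 and 21.3 CPM with docetaxel, without overlap (2.77 ± 0.47, adjusted p = 0.0461, or 2.71 with Docetaxel 3). Akap6, an anchor of protein kinase A, did not overlap either, at 0.381, 0.523 and 0.359 CPM with ORIN1001 and 1.5, 2.1 and 1.25 CPM with docetaxel (2.13 ± 0.30, adjusted p = 0.0348, or 2.06 with Docetaxel 3). The Docetaxel 3 values of Akap6 and Trmt9b each rested on 1 count. Among genes that the naming rule admits, which leaves out gene models, Akap6, Atp10b, Cldn8, Scube1 and Trmt9b had the smallest p on the higher side when Docetaxel 3 was kept, each at an adjusted p of 0.0929.

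Mme, St8sia6, Itga8 and Ddah1 were called lower with docetaxel. Mme, the peptidase neprilysin, which marks basal mammary cells, measured 67.2, 76.5 and 65.4 CPM in ORIN1001 1 to 3 and 5.85, 5.81 and 11.3 CPM in docetaxel 1 to 3. No docetaxel library came near an ORIN1001 library, vehicle inputs held 97.6, 32.7 and 46.2 CPM, and the log2 fold change was -3.56 ± 0.57 (SE, adjusted p = 0.0461) without Docetaxel 3 and -3.42 ± 0.56 (SE, adjusted p = 0.0929) with it. Of 14 tested basal markers 8 were above 0 and 6 below, and the median was 0.05 with or without Docetaxel 3. Without it, 1 was higher and 1 lower at an unadjusted p under 0.05 (9.39% and 9.25% of all genes). Mme was the single call among the 14, where 0.476% of all genes were called. Cnn1, a contractile protein of myoepithelium, was on the other side at 0.14, 0.209 and 0.205 CPM with ORIN1001 against 3.9, 0.957 and 0 CPM with docetaxel (3.67 ± 0.75, adjusted p = 0.0543, or 3.48 with Docetaxel 3). St8sia6, a sialyltransferase, was at 84, 106 and 46.3 CPM under ORIN1001 and at 11.6, 12.5 and 13.8 CPM under docetaxel, without overlap (-2.68 ± 0.49, adjusted p = 0.0474, or -2.67 with Docetaxel 3). Itga8, an integrin subunit, was lower without overlap, at 99.4, 126 and 139 CPM with ORIN1001 and 44.6, 54.8 and 36.3 CPM with docetaxel (-1.28 ± 0.17, adjusted p = 0.0303, or -1.39 with Docetaxel 3). Ddah1, which degrades an inhibitor of nitric oxide synthase, was at 59, 66 and 77.3 CPM with ORIN1001 and 13.5, 20.7 and 23.8 CPM with docetaxel (-1.95 ± 0.31, adjusted p = 0.0461, or -1.86 with Docetaxel 3).

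Fads6, Slc28a2, Ampd3, Mxra8, Ahnak2 and Cd200 were called lower as well. Fads6, of the fatty acid desaturase family, measured 31.7, 49.8 and 57.5 CPM under ORIN1001 and 9.81, 9.74 and 30.1 CPM under docetaxel, where all docetaxel libraries were lower (-2.23 ± 0.25, adjusted p = 0.0103, or -1.76 with Docetaxel 3). The nucleoside transporter Slc28a2 was at 1.76, 4.5 and 3.41 CPM with ORIN1001 against 0.446, 0.436 and 0 CPM with docetaxel (-2.85 ± 0.47, adjusted p = 0.0461, or -2.92 with Docetaxel 3). The AMP deaminase Ampd3 was at 4.49, 7.68 and 5.49 CPM with ORIN1001 against 1.34, 1.38 and 0 CPM with docetaxel (-2.09 ± 0.39, adjusted p = 0.0489, or -2.22 with Docetaxel 3) and, like Slc28a2, had no count in Docetaxel 3. Mxra8, an adhesion protein of matrix-forming cells, was at 4.59, 4.43 and 9.26 CPM with ORIN1001 and 0.78, 1.56 and 1.25 CPM with docetaxel (-2.31 ± 0.43, adjusted p = 0.0498, or -2.33 with Docetaxel 3). The Docetaxel 3 value of Mxra8 rested on 1 count. Ahnak2, a large scaffold protein, was at 5.33, 3.38 and 7.1 CPM with ORIN1001 against 1.45, 1.25 and 8.76 CPM with docetaxel, and Docetaxel 3 exceeded every ORIN1001 library on 7 counts (-1.97 ± 0.36, adjusted p = 0.0474, or -1.30 with Docetaxel 3). The immune-checkpoint ligand Cd200, named after its values were seen, measured 136, 146 and 199 CPM with ORIN1001 against 81.7, 65.1 and 45.1 CPM with docetaxel without overlap (-1.12 ± 0.19, adjusted p = 0.0461, or -1.29 with Docetaxel 3).

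Fgfr1 and Dock6 were called falls that turned direction when Docetaxel 3 was kept. Fgfr1, a fibroblast growth factor receptor, was at 569, 579.5 and 681 CPM with ORIN1001 and at 219, 318 and 1609 CPM with docetaxel, so that the log2 fold change was -1.17 ± 0.21 (SE, adjusted p = 0.0461) without Docetaxel 3 and 0.22 ± 0.56 (SE, adjusted p = 0.906) with it. Dock6, a guanine nucleotide exchange factor, stood at 37.9, 40.0 and 40.8 CPM with ORIN1001 against 14.4, 15.8 and 143 CPM with docetaxel (-1.37 and 0.32). For these genes Docetaxel 3 lay above all ORIN1001 inputs. The J2 library of that tumour gave 792 CPM for Fgfr1, above the 597, 362 and 531 CPM of the ORIN1001 J2 libraries. For Dock6 it gave 47.0 CPM, within the range of their 46.6, 39.3 and 54.05 CPM.

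**Figure D4:**
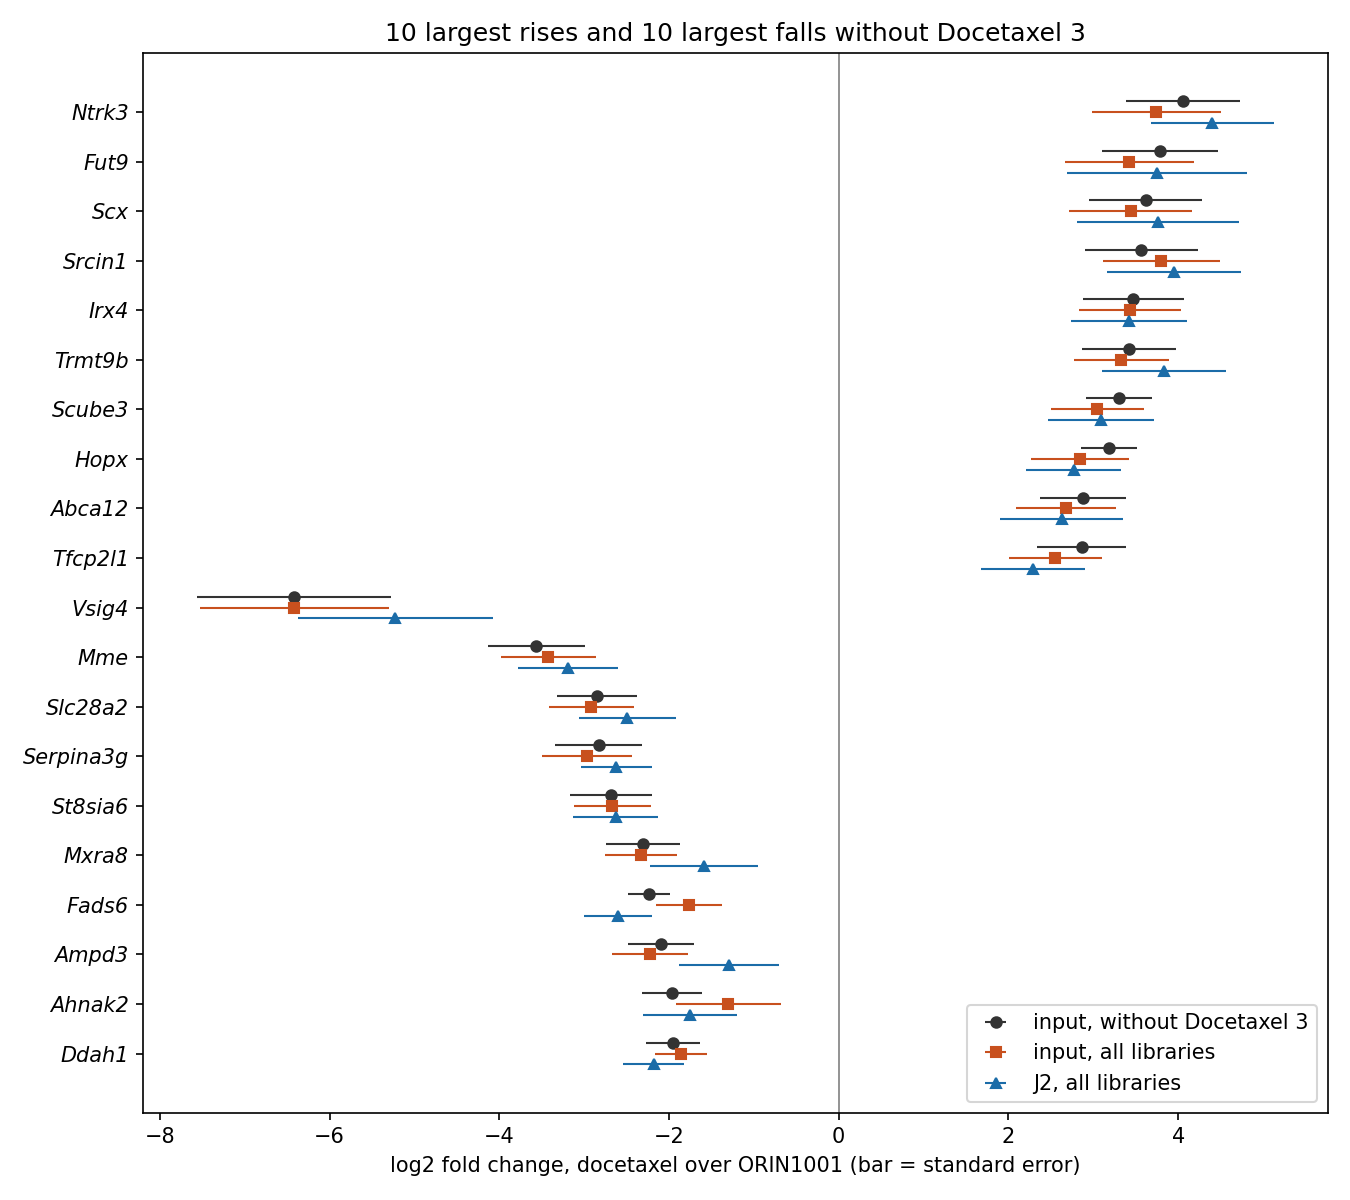
Log2 fold change of docetaxel over ORIN1001 (x axis, bars are standard errors) for the 10 largest named rises and 10 largest named falls (y axis), in the input fit without Docetaxel 3 (circles), the input fit of all libraries (squares) and the J2 fit of all libraries (triangles). Each gene lies on the same side of 0 in the 3 fits, from -6.42 for Vsig4 to 4.05 for Ntrk3 without Docetaxel 3.

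Of 17 tested tubulin genes, which encode the subunits of microtubules, Tubb2b was called, higher with docetaxel. Tubb2b measured 26.1, 28.9 and 24.1 CPM under ORIN1001 and 98, 66.1 and 8.76 CPM under docetaxel, with 51.3, 88.2 and 48.9 CPM in vehicle (1.65 ± 0.27, adjusted p = 0.0461, or 1.23 with Docetaxel 3). Docetaxel 1 and 2 were above all ORIN1001 libraries and Docetaxel 3 below them, while in J2 the third docetaxel tumour held 25.5 CPM, above the ORIN1001 values of 15.5, 11.6 and 12.8 CPM. Tuba1a was at 55.2, 69.4 and 78.2 CPM with ORIN1001 and 160.2, 161 and 45.1 CPM with docetaxel (1.26 ± 0.30, adjusted p = 0.075, or 0.90 with Docetaxel 3). The beta tubulin Tubb5 was at 819, 836 and 839 CPM with ORIN1001 and 1167, 1080 and 538 CPM with docetaxel (0.45 ± 0.19, adjusted p = 0.247, or 0.16 with Docetaxel 3). Neither passed the threshold. The tubulin median was 0.45 without Docetaxel 3, with 6 members higher and 1 lower at an unadjusted p under 0.05 (9.39% and 9.25% of all genes). It was 0.16 with Docetaxel 3, in which 9 of 22 tubulin rows had no count. Tubulin genes have near-identical copies, so their counts are uncertain. Among the drug efflux pumps Abcb1a and Abcb1b neither was called. Abcb1b measured 1.9, 3.73 and 2.49 CPM with ORIN1001 and 3.12, 4.24 and 3.76 CPM with docetaxel (0.47 ± 0.46, adjusted p = 0.62, or 0.46 with Docetaxel 3). Abcb1a measured 1.08, 1.01 and 1.36 CPM with ORIN1001 and 1.23, 0.915 and 2.5 CPM with docetaxel (-0.12 ± 0.36, adjusted p = 0.894, or 0.03 with Docetaxel 3).

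Cell division genes lay mostly above 0, with 1 call. Of 36 genes of mitosis and the spindle checkpoint, Nuf2 was called, 12 had an unadjusted p under 0.05 on the higher side (9.39% of all genes) and 0 on the lower side (9.25%), and 34 were above 0, with a median of 0.26 against -0.02 over all genes. Nuf2, a subunit of the kinetochore complex that grips microtubules, measured 36.1, 32.8 and 32 CPM under ORIN1001, 59, 56.7 and 21.3 CPM under docetaxel and 31.6, 39.8 and 36.3 CPM in vehicle (0.79 ± 0.12, adjusted p = 0.0361, or 0.52 with Docetaxel 3). Cenpf, whose promoter is printed above, was at 177, 143 and 151 CPM with ORIN1001 and 216, 220.4 and 154 CPM with docetaxel (0.49 ± 0.15, adjusted p = 0.133, or 0.34 with Docetaxel 3), Docetaxel 3 falling within the ORIN1001 range. Ccnb1, cyclin B of mitotic entry, was at 113, 111 and 117 CPM with ORIN1001 and 152, 149.8 and 63.9 CPM with docetaxel (0.42 ± 0.16, adjusted p = 0.195, or 0.13 with Docetaxel 3). The kinase Aurkb was at 45.9, 50.0 and 49.1 CPM with ORIN1001 and 59.5, 57.4 and 62.6 CPM with docetaxel (0.28 ± 0.12, adjusted p = 0.219, or 0.30 with Docetaxel 3). Kept in, Docetaxel 3 brought the mitosis median to 0.09, with 24 of 36 above 0.

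Of 27 genes of DNA replication 0 were called, and 10 were higher and 0 lower at an unadjusted p under 0.05 (9.39% and 9.25% of all genes). The median was 0.34 without Docetaxel 3 and 0.20 with it. Mcm7, a subunit of the replicative helicase, measured 165, 158 and 165 CPM under ORIN1001 and 236, 241 and 154 CPM under docetaxel (0.57 ± 0.13, adjusted p = 0.0656, or 0.38 with Docetaxel 3). Tyms, the thymidylate synthase, was at 70.2, 72.9 and 75.2 CPM with ORIN1001 and 116, 99.8 and 61.4 CPM with docetaxel (0.58 ± 0.15, adjusted p = 0.0809, or 0.37 with Docetaxel 3). Replication-dependent histones had a median of 0.42, with 59 of 65 above 0 and none called, and of 0.06 with Docetaxel 3, where 16 of 70 histone rows had no count. Histone genes also have near-identical copies. Cdk6, a kinase of entry into the cycle named after its values were seen, was called at 81.2, 52.5 and 85.7 CPM with ORIN1001 against 164, 161 and 45.1 CPM with docetaxel (1.16 ± 0.21, adjusted p = 0.0461, or 0.80 with Docetaxel 3). The combination inputs held 199, 280.0 and 189.7 CPM. Trp53 was counted in all inputs despite the p53-knockout label, at 42.9, 40.6 and 48 CPM with ORIN1001 and 38.8, 46.1 and 38.8 CPM with docetaxel (-0.03 ± 0.20, adjusted p = 0.954, or -0.08 with Docetaxel 3). A gene-level count does not tell which exons were read or whether host cells gave them, so it does not check the label.

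No gene of the axis that ORIN1001 inhibits was called. Xbp1 measured 129, 160.5 and 143 CPM with ORIN1001, 93.6, 83.6 and 149 CPM with docetaxel and 156, 92.3 and 118 CPM with vehicle, and Docetaxel 3 lay within the ORIN1001 range (-0.69 ± 0.22, adjusted p = 0.142, or -0.44 with Docetaxel 3). Ern1, which encodes IRE1α, was at 44.5, 43.4 and 47.6 CPM with ORIN1001 and 28.2, 35.2 and 46.3 CPM with docetaxel (-0.50 ± 0.15, adjusted p = 0.126, or -0.36 with Docetaxel 3). Gene counts do not separate the spliced from the unspliced Xbp1 mRNA. Of 47 genes of folding and secretion that IRE1 and XBP1 are known to drive, 0 were called. At an unadjusted p under 0.05, 3 were higher and 3 lower (9.39% and 9.25% of all genes). Their median was -0.02 without Docetaxel 3 and -0.16 with it. Dnajb9, a co-chaperone induced through XBP1, was at 8.5, 9.38 and 8.59 CPM with ORIN1001, 11.1, 12.2 and 6.26 CPM with docetaxel and 14.3, 13.4 and 10.5 CPM with vehicle (0.42 ± 0.18, adjusted p = 0.244, or 0.26 with Docetaxel 3). Derl3, whose promoter is printed above, was on the other side, at 1.56, 2.13 and 2.64 CPM with ORIN1001 and 0.613, 1.07 and 0 CPM with docetaxel (-1.25 ± 0.54, adjusted p = 0.249, or -1.37 with Docetaxel 3). The chaperone Hspa5 overlapped between the drugs, at 427, 593 and 733 CPM with ORIN1001 and 366, 602 and 293 CPM with docetaxel (-0.26 ± 0.30, adjusted p = 0.678, or -0.47 with Docetaxel 3). None of these 5 passed the threshold.

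Neither reported RIDD substrates nor the ATF4 branch of the stress response held a called gene. Of 14 RIDD substrates tested 0 were called and 3 were lower at an unadjusted p under 0.05 (9.25% of all genes), with a median of -0.26, or -0.29 with Docetaxel 3. Among them Col6a1 and Pdgfrb are also fibroblast genes: Col6a1 measured 20.4, 26.9 and 42.8 CPM with ORIN1001 and 17.3, 10.9 and 51.3 CPM with docetaxel, where Docetaxel 3 was above all others (-1.09 ± 0.31, adjusted p = 0.103, or -0.38 with Docetaxel 3). Of 26 genes of the ATF4 and CHOP response 0 were called, and 4 were higher and 2 lower at an unadjusted p under 0.05 (9.39% and 9.25% of all genes). The median was 0.15, or 0.057 with Docetaxel 3. Phgdh, the first enzyme of serine synthesis, was at 30.0, 18.7 and 28.7 CPM with ORIN1001 and 44.6, 79.2 and 18.8 CPM with docetaxel (1.28 ± 0.26, adjusted p = 0.0543, or 0.97 with Docetaxel 3). Eif4ebp1, a translation repressor, was on the other side at 63.1, 66.2 and 60.4 CPM with ORIN1001 and 34.1, 47.2 and 13.8 CPM with docetaxel (-0.62 ± 0.17, adjusted p = 0.0963, or -0.89 with Docetaxel 3).

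None of 29 fibroblast and matrix genes was called, and nearly all had negative log2 fold changes without Docetaxel 3. Of the list, 18 of the 29 had an unadjusted p under 0.05 on the lower side (9.25% of all genes) and 1 on the higher side, 27 were below 0, and the median was -1.16. Their summed level was 1180, 1370 and 2450 CPM in ORIN1001 1 to 3, 956 and 1010 CPM in docetaxel 1 and 2, and 3550 CPM in Docetaxel 3 with 5 members at 0. Without ORIN1001 3, the highest of its group, the median was -0.73, and with Docetaxel 3 it was -0.59. Fbn1, the microfibril protein fibrillin, measured 39.2, 55.9 and 92.5 CPM with ORIN1001 and 19.6, 23.9 and 43.8 CPM with docetaxel (-1.51 ± 0.34, adjusted p = 0.0656, or -1.22 with Docetaxel 3). Thy1, a surface marker of fibroblasts, was at 15.9, 22.8 and 35.9 CPM with ORIN1001 and 10.6, 6.4 and 5.01 CPM with docetaxel, without overlap (-1.56 ± 0.36, adjusted p = 0.0689, or -1.66 with Docetaxel 3). Fap, the fibroblast activation protein, did not overlap either, at 4.09, 3.63 and 5.03 CPM with ORIN1001 and 1.23, 2.14 and 1.25 CPM with docetaxel (-1.28 ± 0.31, adjusted p = 0.0758, or -1.34 with Docetaxel 3). Its Docetaxel 3 value rested on 1 count, and even a zero there allows up to 3.76 CPM, above the lowest ORIN1001 value. Vehicle inputs held 9.57, 13.9 and 8.68 CPM of Thy1 and 2.61, 1.86 and 2.62 CPM of Fap, nearer to docetaxel. Prrx1, a mesenchymal homeobox factor, was at 14.2, 14.7 and 32.1 CPM with ORIN1001 against 7.47, 4.11 and 8.76 CPM with docetaxel (-1.83 ± 0.41, adjusted p = 0.065, or -1.71 with Docetaxel 3). Endothelial markers had a median of -0.44, which was -0.34 with Docetaxel 3 and -0.06 without ORIN1001 3. Of the 20, 0 were called (0.476% of all genes), and 0 were higher and 2 lower at an unadjusted p under 0.05.

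Vsig4 was the one macrophage gene discussed here that was called, and it was lower with docetaxel. This complement receptor of tissue-resident macrophages measured 2.67, 5.69 and 10.9 CPM in ORIN1001 1 to 3 and 0.111, 0.0563 and 0 CPM in docetaxel 1 to 3, the docetaxel values resting on 2, 4 and 0 counts. It was called without Docetaxel 3 (-6.42 ± 1.14, adjusted p = 0.0461, or -6.42 with Docetaxel 3), vehicle inputs held 0.126, 0.998 and 1.07 CPM, and in the J2 libraries it was at 0.699, 1.18 and 4.02 CPM against 0.0515, 0 and 0.13 CPM. Mrc1, the mannose receptor, did not pass, at 26.2, 101 and 128 CPM with ORIN1001 against 13.1, 7.78 and 21.3 CPM with docetaxel (-3.04 ± 0.63, adjusted p = 0.0543, or -2.80 with Docetaxel 3). The folate receptor Folr2 did not pass either, at 2.67, 11.9 and 17.6 CPM with ORIN1001 and 1, 1.32 and 0 CPM with docetaxel (-3.16 ± 0.85, adjusted p = 0.0901, or -3.28 with Docetaxel 3). Nor did the hyaluronan receptor Lyve1, at 2.42, 11.1 and 40.2 CPM with ORIN1001 and 1.39, 0.141 and 0 CPM with docetaxel (-4.85 ± 1.48, adjusted p = 0.126, or -4.81 with Docetaxel 3). In all 4 genes ORIN1001 1 was the lowest and ORIN1001 3 the highest of their group. Over 20 macrophage markers the median was -0.01, or -0.27 with Docetaxel 3, and 1 was higher and 4 lower at an unadjusted p under 0.05 (9.39% and 9.25% of all genes). Their summed level ranged from 543 to 1150 CPM in ORIN1001 and from 391 to 1030 CPM in docetaxel, with 6 markers at 0 in Docetaxel 3. Itgax, an integrin of dendritic cells and macrophages, was on the other side at 15.7, 21.8 and 10.8 CPM with ORIN1001 against 31.9, 46 and 15 CPM with docetaxel (1.30 ± 0.25, adjusted p = 0.0529, or 1.05 with Docetaxel 3).

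Of the killer-cell transcripts 1 was called, at levels near the limit of detection. Gzma, a granzyme of killer cells, measured 1.6, 1.71 and 2.18 CPM with ORIN1001 and 0.0557, 0.0563 and 2.5 CPM with docetaxel, on 1, 4 and 2 counts. It was called without Docetaxel 3 (-4.92 ± 0.51, adjusted p = 0.0103, or -4.11 with Docetaxel 3), but the 2 counts of Docetaxel 3 equal a level above all ORIN1001 libraries, which a library of that depth cannot tell from far lower values. In J2, where the third docetaxel tumour had no Gzma count, the levels were 0.318, 0.321 and 0.611 CPM against 0.0515, 0 and 0 CPM. Prf1, the pore-forming perforin, was at 1.58, 1.4 and 1.72 CPM with ORIN1001 and 0.279, 0.183 and 0 CPM with docetaxel (-2.83 ± 0.54, adjusted p = 0.0518, or -2.86 with Docetaxel 3), short of the threshold. Gzmb was at 1.14, 1.5 and 1.59 CPM with ORIN1001 and 0.446, 0.0985 and 0 CPM with docetaxel (-2.66 ± 0.73, adjusted p = 0.097, or -2.65 with Docetaxel 3). Of 11 tested killer-cell markers 5 were lower and 0 higher at an unadjusted p under 0.05 (9.25% and 9.39% of all genes). The median of these markers was -0.98, which was -1.44 with Docetaxel 3 and -0.39 without ORIN1001 2. Their summed level was 8.10 to 15.6 CPM with ORIN1001 and 3.96 and 4.11 CPM in docetaxel 1 and 2. Docetaxel 3 summed to 8.76 CPM, within the ORIN1001 range, with 13 of 15 rows at 0. T cell markers had a median of 0.06, or 0.035 with Docetaxel 3, in which 11 of 17 had no count. Of the 17, 0 were called (0.476% of all genes), and 1 was higher and 0 lower at an unadjusted p under 0.05.

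Interferon-induced genes mostly had negative log2 fold changes. None of 51 was called, 11 were lower and 0 higher at an unadjusted p under 0.05 (9.25% and 9.39% of all genes), 49 were below 0, and the median was -0.50 without Docetaxel 3 and -0.51 with it. The median was -0.27 without docetaxel 1 and -0.93 without docetaxel 2. Their summed level was 3120, 3310 and 2710 CPM in ORIN1001, 1660, 2470 and 2220 CPM in docetaxel, and 3970, 1900 and 1730 CPM in vehicle. Irgm1, an immunity-related GTPase, measured 129, 148 and 128 CPM with ORIN1001 and 66.6, 72.2 and 36.3 CPM with docetaxel, without overlap (-0.95 ± 0.27, adjusted p = 0.103, or -1.16 with Docetaxel 3). Gbp4, a guanylate-binding protein, measured 22.4, 32.6 and 17.1 CPM with ORIN1001 and 4.29, 5.9 and 21.3 CPM with docetaxel (-2.20 ± 0.68, adjusted p = 0.129, or -1.70 with Docetaxel 3). Cxcl9, a chemokine induced by interferon gamma, was at 59.4, 72.3 and 41.2 CPM with ORIN1001 against 3.96, 9.88 and 0 CPM with docetaxel (-2.98 ± 0.61, adjusted p = 0.0543, or -3.19 with Docetaxel 3). Combination inputs held 316, 179.6 and 213 CPM. Serpina3g, a protease inhibitor that interferon can induce, was called at 7.88, 20.9 and 9.62 CPM with ORIN1001 against 1.23, 2.18 and 0 CPM with docetaxel (-2.83 ± 0.51, adjusted p = 0.0461, or -2.97 with Docetaxel 3). Its combination values were also higher, 27.5, 15.9 and 24.2 CPM. The class II gene H2-Aa was on the other side and overlapped, at 32.2, 85.3 and 26.2 CPM with ORIN1001 and 61.6, 162 and 27.5 CPM with docetaxel (1.25 ± 0.50, adjusted p = 0.216, or 0.88 with Docetaxel 3).

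**Figure D5:**
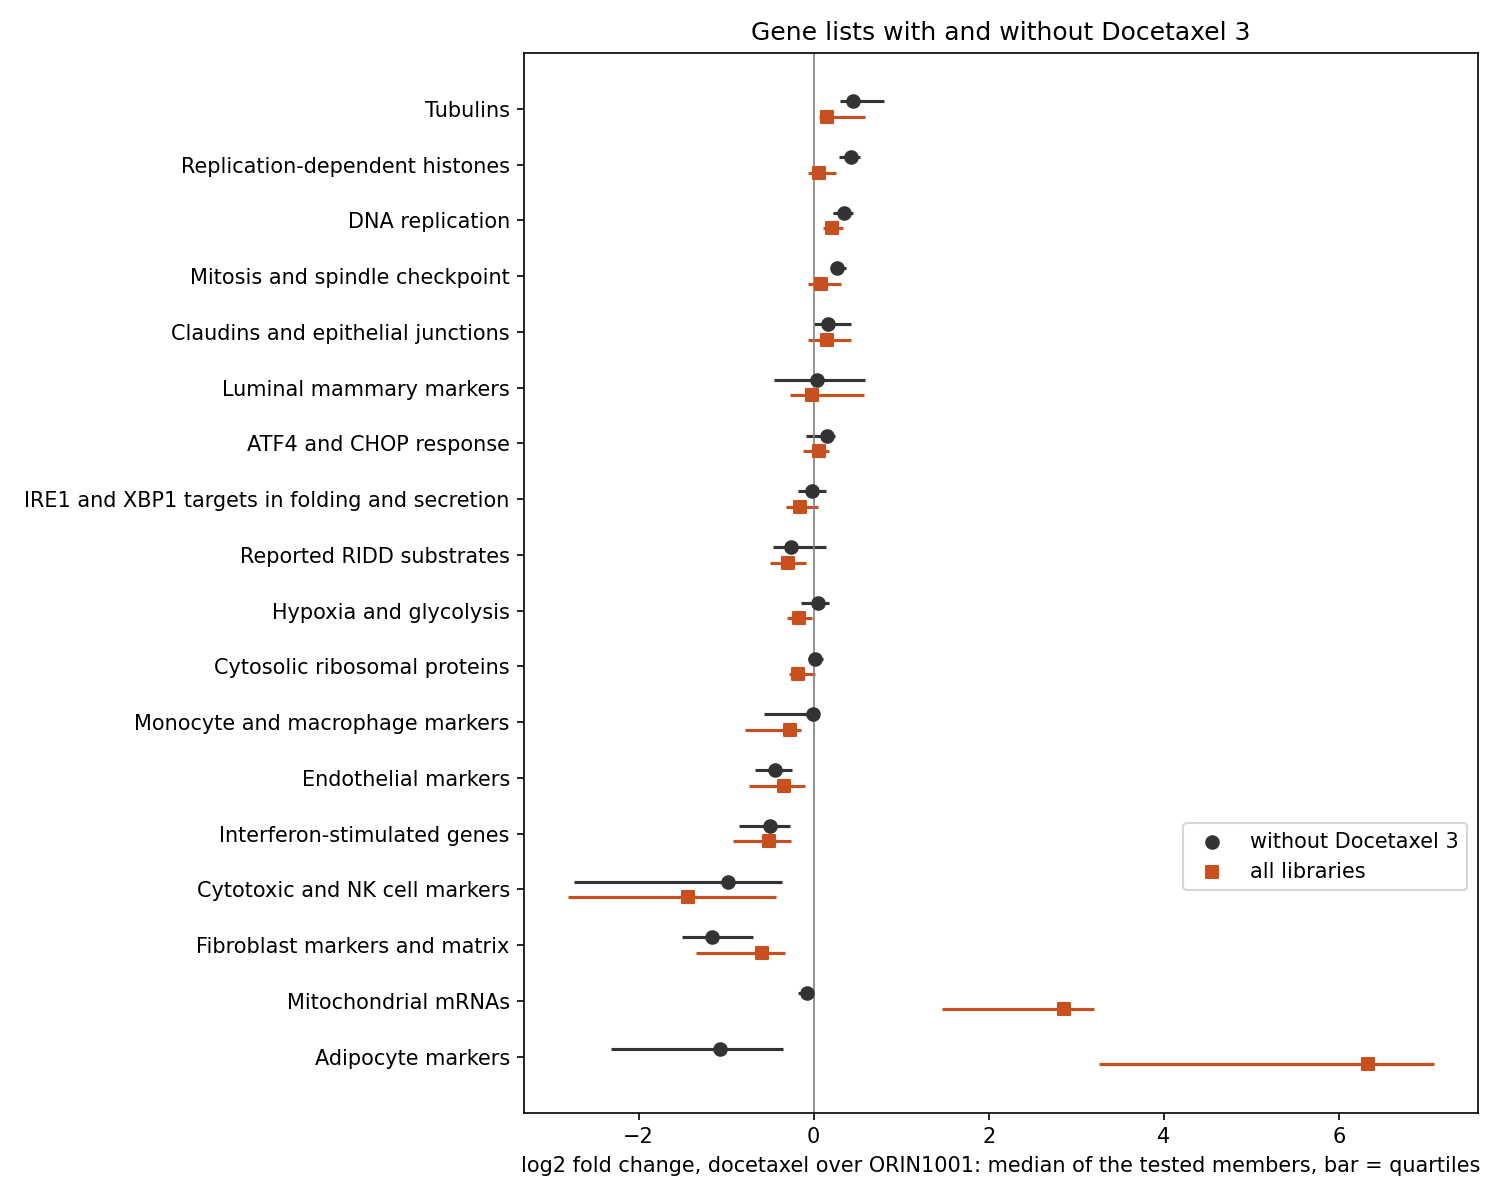
Median log2 fold change of docetaxel over ORIN1001 (x axis, bars are quartiles over the tested members) for 18 gene lists (y axis), without Docetaxel 3 (circles) and with all libraries (squares). Division lists lie at 0.26 to 0.42 and fibroblast markers at -1.16 without Docetaxel 3, and keeping it moves mitochondrial mRNAs to 2.86 and adipocyte markers to 6.33.

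The medians of mitochondrial and adipocyte genes turned on Docetaxel 3. Mitochondrial mRNAs had a median of 2.86 with that library and -0.07 without it, and adipocyte markers 6.33 and -1.07, yet neither list held a called gene in either fit. Cytosolic ribosomal proteins had a median of 0.01 without Docetaxel 3 and -0.19 with it, and hypoxia and glycolysis genes stood at 0.05 and -0.17. The vehicle and combination inputs were part of the fit that called genes without Docetaxel 3, and they entered its estimate of spread. Their values are therefore not an independent readout of the called genes, and the shares over all genes are not a fair baseline. All 3 combination inputs were above all 3 vehicle inputs for 44 of the 64 genes that were higher with docetaxel, where 22% of all genes tested were, and below them for 16 of the 24 that were lower, where 24.8% were. On the opposite side were 0 of the 64 and 3 of the 24.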

How the data were processed

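The deposited gene table holds counts, whole numbers per gene and library. The tools listed per the submitters' processing notes are featureCounts 2.0.3, STAR 2.7.3a and fastp 0.23.2, and the build is mm10. Whether counting used strand, and how multiply aligned reads were treated, is not given in the sources used here, so genes with near-identical copies, overlapping genes and antisense partners carry uncertain counts. Per the labels, the kit was stranded and depleted ribosomal RNA. A symbol was found for 53274 of the 53465 rows. The groups compared and the gene lists were chosen with earlier results of these data known.

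Genes were tested with edgeR 4.0.16 (R 4.3.3; TMM, filterByExpr with minimum count 10 and minimum total 15, quasi-likelihood F test, two-sided, Benjamini-Hochberg over all genes, threshold 0.05). The 12 inputs were fitted with 1 coefficient per treatment, and again without Docetaxel 3. The contrast is docetaxel minus ORIN1001. CPM are counts scaled to a TMM-adjusted library of 1000000. A CPM is meant for comparison between libraries and not between genes, since it is not divided by length. For Docetaxel 3 that comparison rests on a TMM factor of 0.244, against 1.09 to 1.21 in the other inputs. Whether the scaling holds for the composition of that library was not tested. A standard error is the fold change divided by the root of F. Tested on simulated data, the fit of all libraries recovered 53% of genes changed 2-fold and 100% of those changed 4-fold, with 9 false calls over 17383 genes. Without Docetaxel 3 these were 41%, 100% and 3 over 18024 genes. Each simulated library was drawn from 1 mean profile, and the changed genes were taken above a minimum level. All genes had 1 spread between replicates, smaller than edgeR's common estimate in either real fit. The simulation thus held the depth of Docetaxel 3 but not its composition, and its rates do not carry over to the real libraries.

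Genes were named by a rule: adjusted p under 0.05, mean log2 CPM of at least 0 and no overlap between the groups, leaving out gene models and pseudogenes, with the 10 largest rises and falls. Where none passed, the 5 smallest p in each direction were eligible, with Ern1, Xbp1, Trp53, Abcb1a, Abcb1b and up to 4 members of each list by smallest p. Members of lists that the text gives beyond these, and called genes so marked, were chosen after their values were seen. The alternatives were DESeq2 1.42.0, limma voom 3.58.1 with sample weights, no filter, other scalings, other library sets and a replicate block. No pair of replicates looked like 1 library entered under 2 names (smallest chi-square per degree of freedom 12.6). The transposable element table was not used, and 1 called gene is counted but not reported by name.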

Additional observations from a re-analysis of the deposited data

How the results depend on the processing

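With all inputs, the 0 calls of edgeR became 576 with DESeq2 (334 higher with docetaxel, 242 lower), 1137 with limma voom (602 and 535) and 57 with no filter on low counts (32 and 25). The count was 0 with both drugs' inputs alone, ribosomal and mitochondrial counts removed, upper-quartile scaling and the replicate block. Leaving out 1 library each gave 0 to 88. Without Docetaxel 3, the 88 calls became 1254 with DESeq2 (639 and 615), 999 with limma voom (626 and 373), 998 with no filter (447 and 551) and 1 with both drugs' inputs alone, and were 96 and 99 (61 and 38) under the other scalings. Leaving out 1 more library each gave 0 to 260. The J2 comparison gave 0 calls, and 69 (42 and 27) without its Docetaxel 3, a setting chosen after seeing the data.

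The correlations of same-numbered docetaxel and ORIN1001 deviations from their group means were -0.0929, 0.0818 and -0.03. Docetaxel 3 enters every docetaxel deviation there. Without it the deviations of docetaxel 1 and 2 mirror each other, and the correlations were -0.0327 and 0.0332. These values cannot settle whether the replicate numbers pair the samples. The replicate block gave 0 calls with all inputs and 0 without Docetaxel 3, where it also costs degrees of freedom.

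Of the genes named, these turned direction. With Docetaxel 3 kept, Fgfr1 was at 0.22, Dock6 at 0.32 and Abcb1a at 0.031. Leaving out 1 library each, Abcb1a ran from -0.31 to 0.096, Trp53 from -0.17 to 0.093 and Hspa5 from -0.67 to 0.060. The cause was not tested for any of these changes. Depth limits Docetaxel 3, where a gene under 3.76 CPM can be at 0 by counting alone, and 3 against 3 samples cannot give an exact permutation p below 0.1.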
